A study of Homo sapiens with 60 samples.

Results

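Hot-water extracts of Scutellariae Radix (SR, Scutellaria root) and Pinelliae Tuber (PT, Pinellia tuber) were compared at the highest dose of each, using 3 libraries for SR at 230 µg/mL (SR high) and 3 for PT at 500 µg/mL (PT high), chosen by their labels as 6 of the 60 libraries of the study. All are from A549, an established human lung carcinoma line, harvested 24 h after treatment. The study also holds a DMSO vehicle, wortmannin as positive control, and lower doses of both extracts, 46 and 9.2 µg/mL for SR (SR medium and SR low) and 100 and 20 µg/mL for PT (PT medium and PT low), each with 3 libraries. Vehicle is 0.1% DMSO by the sample labels but 2% by the design text. By that text an extract with an IC20 (a concentration of limited inhibition) under 500 µg/mL was given at its IC20, so the high doses were chosen in different ways, and the 2 extracts were never given at the same concentration. Nothing in the labels says that a group's 3 libraries were grown as separate cultures. The spread behind every p-value is therefore that of these libraries and may be technical.

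Inflammatory signalling in epithelial cells often runs through NF-kB, a transcription factor held in the cytoplasm by inhibitors that its own activity re-induces. Its targets include chemokines that attract neutrophils and monocytes, adhesion molecules and complement proteins. The integrated stress response is a separate programme: kinases that sense amino acid shortage, unfolded protein or other stress phosphorylate the initiation factor eIF2, which slows most translation and favours that of ATF4, and ATF4 with its partner CHOP (the product of DDIT3) activates genes of amino acid supply and of cell death. The heat shock response, driven by HSF1, supplies cytosolic chaperones, while the unfolded protein response supplies those of the endoplasmic reticulum.

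The 6 libraries held between 21032770 and 36479629 estimated counts. PT high replicate 2 stood apart from its group: its counts differed from those of the other PT high libraries with a chi-square per degree of freedom of 21 and 14.7, against 4.08 between the other pair, and the slope of its expression on transcript length was 0.913 against 1.01 in both others. Epithelial and A549 markers (19 genes, led by ALDH1A1, KRT8, KRT18 and KRT7) summed to between 15201 and 15966 CPM (read counts scaled to a common library size) in SR high and between 14263 and 16170 in PT high. Blood and immune markers summed to at most 10.4 CPM, with 7 of 16 at 0 in all 6 libraries, among them CD3E, CD3D, LYZ and MPO, and fibroblast and endothelial markers to at most 8.04 CPM, with DCN, FAP and KDR at 0. In bulk RNA, fewer cells of a type and less RNA per cell cannot be told apart.

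Of 17129 genes tested, 3679 (21.5%) differed between SR high and PT high by edgeR's quasi-likelihood test at a Benjamini-Hochberg adjusted p under 0.05. They comprised 1951 (11.4%) higher in SR high and 1728 (10.1%) lower, and 116 (0.677%) of the former and 55 (0.321%) of the latter differed at least 2-fold. Folds below are SR high over PT high on the log2 scale with a standard error unless stated otherwise, and every adjusted p comes from that test. The median log2 difference over all genes was -0.0039. All 3 SR libraries lay above all 3 PT libraries for 17.4% of the tested genes and below them for 15.7%. Stress genes, early-response genes and lipid synthesis genes were mostly higher in SR high. Heat shock, DNA replication and mitosis genes were mostly lower, and inflammatory genes fell on both sides.

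**Figure D1:**
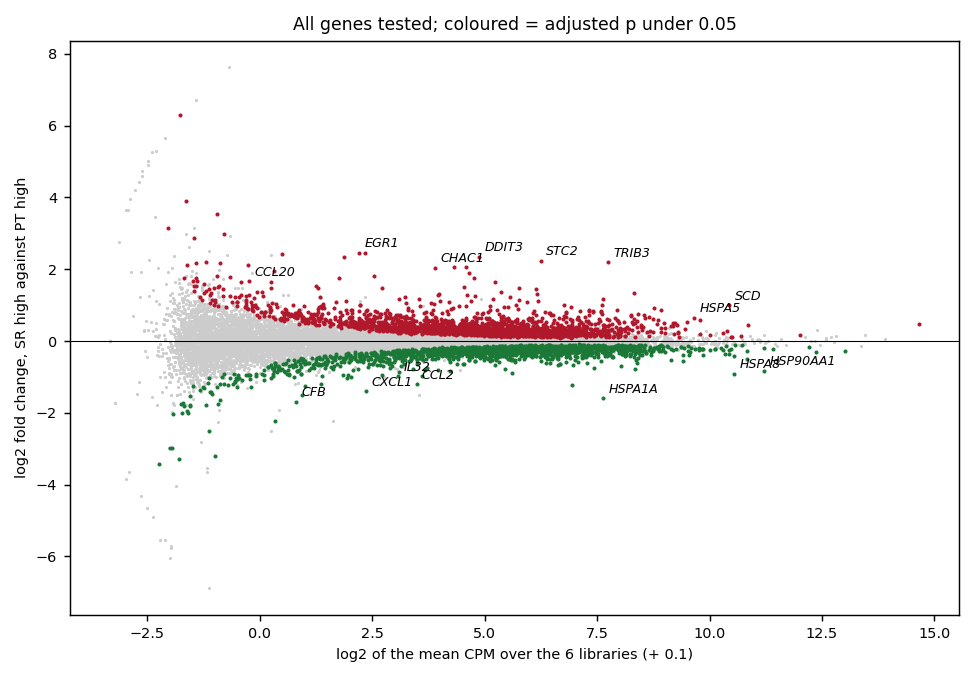
Log2 difference between SR high and PT high for the 17129 genes tested, against the log2 mean level (+ 0.1) over the 6 libraries. Red points were higher in SR high and green points lower at an adjusted p under 0.05. Of the genes labelled, TRIB3, DDIT3, STC2 and EGR1 stand among the highest, and HSPA1A, CXCL1 and CCL2 among the lowest.

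Chemokines were higher with both extracts, and the 2 high doses differed in the level of single ones. Of 16 tested inflammatory chemokines and cytokines, 8 were higher in SR high than in SR low (background for higher calls 11.1%) and 7 in PT high than in PT low (background 0.397%), with 0 lower by edgeR or DESeq2 in either. At an unadjusted p under 0.05, 0 were lower for SR and 1 for PT. Directly compared, 4 were higher in SR high and 4 lower (background 11.4% and 10.1%), with a list median of 0.09. The neutrophil chemokine CXCL1 measured 2.78, 2.92 and 2.67 CPM in SR high and 7.21, 8.32 and 6.62 in PT high, against 1.02 ± 0.14 (SD, n = 3) in vehicle. Every PT library lay above every SR library, and SR was above vehicle. The difference was -1.40 ± 0.18 (adjusted p = 2.31e-08), or 2.64-fold higher in PT high.

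CCL2, which attracts monocytes, measured 6.74, 6.46 and 7.01 CPM in SR high and 14.4, 17.8 and 14.3 in PT high, with 5.93 ± 0.218 in vehicle. SR high was not distinguished from vehicle (0.19 ± 0.15, adjusted p = 0.396), while PT high stood 2.61-fold above it, and the 2 high doses differed by -1.20 ± 0.13 (adjusted p = 8.18e-10). IL32, a cytokine that promotes release of other cytokines, measured 6.36, 4.58 and 5.76 CPM in SR high and 9.8, 13.4 and 9.89 in PT high, a difference of -0.98 ± 0.14 (adjusted p = 2.08e-07). CSF1, the macrophage growth factor, was also lower in SR high (-0.26 ± 0.05, adjusted p = 0.000258). For CCL2 and IL32 the highest PT value was that of replicate 2, and the direction and call were kept without it.

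The chemokines higher in SR high were CXCL2 and CCL20. CXCL2, another neutrophil chemokine, measured 11.1, 10.4 and 9.81 CPM in SR high against 6.36, 7.02 and 6.5 in PT high, a difference of 0.66 ± 0.12 (adjusted p = 5.96e-05), and both groups were above the vehicle level of 2.45 ± 0.529. CCL20, which attracts CCR6-bearing lymphocytes and dendritic cells, was scarce: 0.942, 1.37 and 1.17 CPM in SR high and 0.491, 0.185 and 0.355 in PT high (1.67 ± 0.33, adjusted p = 0.000118). The groups did not overlap for either gene. Cytokines of the IL-6 family were on the same side: LIF measured 128, 129 and 132 CPM in SR high and 89, 77.3 and 87.4 in PT high, whose levels lay around the vehicle's 83.2 ± 1.14, a difference of 0.62 ± 0.05 (adjusted p = 1.08e-12), and IL11 differed by 0.63 ± 0.07 (adjusted p = 1.21e-09).

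CXCL8, CXCL5 and CXCL3 were above vehicle with both extracts, without a called difference between the high doses in the fit used throughout. CXCL8 (interleukin 8) measured 5.61, 5.33 and 6.18 CPM in SR high and 7.54, 7.58 and 7.61 in PT high, against 0.877 ± 0.282 in vehicle, so the groups did not overlap, yet the difference of -0.41 ± 0.16 missed the threshold (adjusted p = 0.0655). It passed when only the 6 libraries were fitted (adjusted p = 0.0256) and in DESeq2 (adjusted p = 0.0387), and with the libraries' slope on transcript length as covariate (0.0356). CXCL5 was the most abundant, at 169, 157 and 172 CPM in SR high and 182, 170 and 187 in PT high, from 84.8 ± 3.77 in vehicle (-0.12 ± 0.05, adjusted p = 0.09, or 0.0429 with the length slope as covariate). These 5 CXC genes lie together on chromosome 4 of GRCh38, from CXCL8 (chr4:73740506-73743716) through CXCL1 (chr4:73869393-73871242), CXCL5 (chr4:73995642-73998779) and CXCL3 (chr4:74036589-74038807) to CXCL2 (chr4:74097035-74099293), by GENCODE 29. CXCL1, CXCL2 and CXCL3 are close copies, so the counting may have shared reads among them, and values of CXCL3 (0.26 ± 0.17, adjusted p = 0.316) are uncertain for that reason too.

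**Figure D2:**
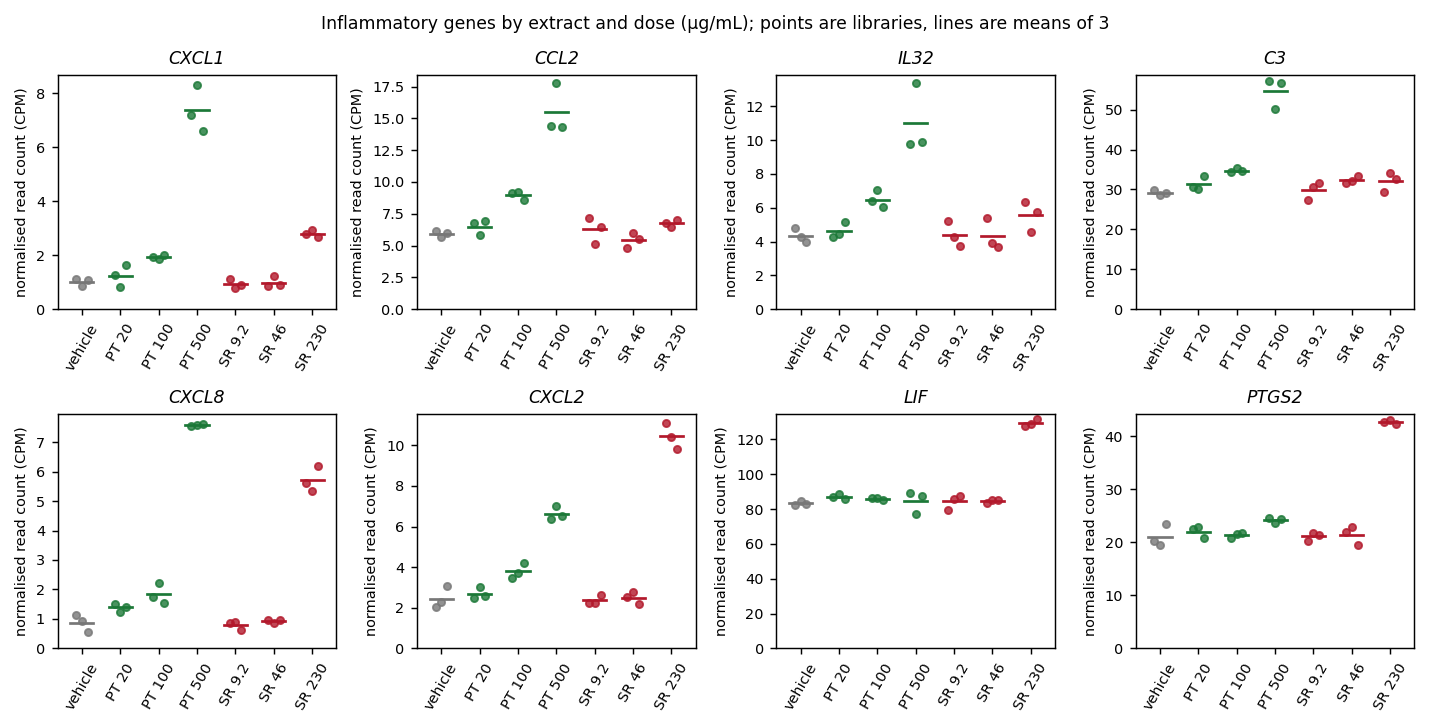
Normalised read counts (CPM, linear axis from 0) of 8 inflammatory genes in vehicle, PT at 20, 100 and 500 µg/mL and SR at 9.2, 46 and 230 µg/mL; points are libraries and lines are means of 3. CXCL1, CCL2, IL32 and C3 are highest at PT 500, and CXCL2, LIF and PTGS2 at SR 230.

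The upstream region of CXCL1 is shown because NF-kB acts on this family. It spans chr4:73869143-73869442 (GRCh38.p14, plus strand, 250 bases before to 50 after the RefSeq start), with matches to a loose kappaB form (GGG, any 5 bases, CC), searched on both strands, in capitals. The 3 matches begin between 128 and 78 bases before the start, and 2 of them overlap.
CXCL1: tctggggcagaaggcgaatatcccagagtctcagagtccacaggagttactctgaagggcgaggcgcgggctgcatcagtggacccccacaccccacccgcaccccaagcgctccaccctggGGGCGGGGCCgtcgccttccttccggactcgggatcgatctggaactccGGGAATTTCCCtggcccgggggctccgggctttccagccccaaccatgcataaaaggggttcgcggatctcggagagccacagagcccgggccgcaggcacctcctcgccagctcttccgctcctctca
This form is common: 58% of the 27305 RefSeq promoters of that length hold it, as do 73.3% of those of tested genes and 7 of the 9 listed chemokines with a promoter in the table, so its presence describes the sequence only.

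Complement and acute phase genes leaned to PT high: of 20 tested, 2 were higher in SR high and 8 lower, with a median of -0.21 (without PT high replicate 2, 1 higher and 8 lower). Over all genes, 11.4% were higher and 10.1% lower. C3, the central complement component, measured 29.4, 34.1 and 32.7 CPM in SR high, around the vehicle level of 29.1 ± 0.644, and 57.3, 50.2 and 56.8 in PT high. The groups were far apart, by -0.77 ± 0.09 (adjusted p = 1.66e-09). CFB, the serine protease of the alternative pathway, measured 1.04, 0.519 and 0.793 CPM in SR high and 2.43, 2.63 and 2.56 in PT high (-1.69 ± 0.24, adjusted p = 2.22e-07). C1R and C1S, the proteases of the classical pathway, were both lower in SR high by 0.39 on the log2 scale. In PT high against PT low the called members were C1R, C1S, C3, CFB and LCN2 (5 of 20, all higher, background 0.397%). In SR high against SR low 1 was higher and 5 lower (background for lower calls 9.36%), or 2 lower without SR low replicate 1. CD55, which protects cells from complement, stood on the other side at 0.51 ± 0.06 (adjusted p = 1.27e-08).

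Effector targets of NF-kB were mixed, with 7 of 22 higher in SR high and 5 lower (3 lower without PT high replicate 2 or 3, or without SR high replicate 1 or 2). The shares over all genes were 11.4% and 10.1%. PTGS2, the inducible prostaglandin synthase, measured 42.7, 43 and 42.3 CPM in SR high and 24.6, 23.6 and 24.3 in PT high, against 21.1 ± 2.1 in vehicle, a difference of 0.82 ± 0.12 (adjusted p = 2.82e-07). CD274, encoding the immune checkpoint ligand PD-L1, measured 6.27, 6.6 and 5.64 CPM against 3.44, 3.1 and 2.68 (0.99 ± 0.14, adjusted p = 1.84e-07), and PT high was not distinguished from vehicle (adjusted p = 0.544). SOD2, the mitochondrial superoxide dismutase, went the other way at -0.34 ± 0.04 (adjusted p = 9.51e-09). ICAM1, an adhesion molecule, was 2.69, 3.35 and 2.5 CPM in SR high and 1.34, 1.99 and 1.89 in PT high (0.73 ± 0.21, adjusted p = 0.00787); without PT high replicate 1 the adjusted p was 0.0884 and without SR high replicate 2 it was 0.0679.

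Of 17 listed inhibitors of NF-kB and cytokine signals, 12 were not called, SOCS3 and ZFP36 were higher in SR high, and TNFAIP3, NFKBIB and NFKBID were lower. Over all genes, 11.4% were higher in SR high and 10.1% lower. No list count in this paragraph was tested against these shares. NFKBIB did not pass without PT high replicate 2 or SR high replicate 2, and NFKBID not without PT high replicate 1 or 2 or SR high replicate 1. SOCS3, which restrains signalling by the IL-6 family, measured 34.3, 35.1 and 35.5 CPM in SR high and 22.9, 23.2 and 21.3 in PT high, near the vehicle's 21.1 ± 1.44 (0.64 ± 0.05, adjusted p = 2.14e-13). TNFAIP3, the deubiquitinase A20, measured 6.55, 6.93 and 7.51 CPM against 10.1, 8.55 and 9.85 (-0.44 ± 0.10, adjusted p = 0.000963). NFKBIA, the main cytoplasmic inhibitor, did not differ detectably (-0.05 ± 0.07, adjusted p = 0.674), and both groups were above the vehicle level of 45 ± 2.49 CPM (adjusted p = 0.00138 for SR and 0.00378 for PT, the latter not passing without vehicle replicate 2). Of 23 NF-kB subunits and signalling proteins 4 were higher and 4 lower (2 higher without SR high replicate 3), including the kinase IRAK2 at 0.64 ± 0.08 and the kinase IKBKE at -0.54 ± 0.09. Of 30 interferon-stimulated genes 1 was higher in SR high (STAT2) and 1 lower (B2M). Without SR high replicate 3, 0 were lower, and 2 were without PT high replicate 3.

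**Figure D3:**
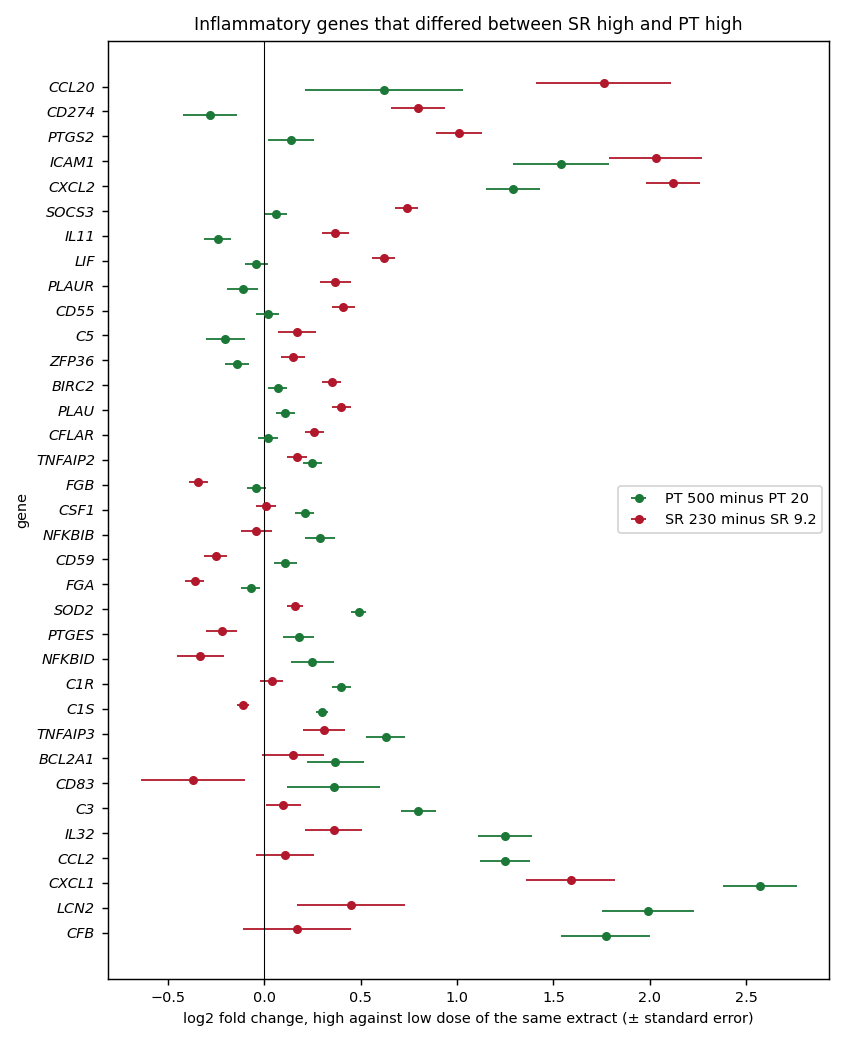
Log2 fold change of the high against the low dose of the same extract, with standard errors, for inflammatory genes that differed between SR high and PT high, ordered by that difference. For CFB, LCN2, CXCL1, CCL2 and IL32 at the bottom the PT point lies to the right, and for CCL20, CD274 and PTGS2 at the top the SR point does.

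Integrated stress response genes differed widely between the extracts. Of 19 regulators 13 were higher in SR high and 0 lower, against 11.4% and 10.1% of all genes. The list median was 0.75. DESeq2 called the same numbers, and 0 had an unadjusted p under 0.05 in the lower direction. In PT high against PT low edgeR called 0 of 19, with 4 higher and 1 lower at an unadjusted p under 0.05 and 0 by DESeq2. Of all 17129 genes, 0.549% were called there and 1982 had an unadjusted p under 0.05. A count of 0 therefore does not set this list apart. TRIB3, a pseudokinase that ATF4 and CHOP induce, measured 351, 324 and 376 CPM in SR high and 76, 81.5 and 72.3 in PT high, against 65.2 ± 4.04 in vehicle. Every SR library was far above every PT library, and the difference was 2.19 ± 0.06 (adjusted p = 2.07e-30). DDIT3, encoding CHOP, measured 49.8, 44.8 and 52.5 CPM against 9.2, 12.2 and 7.8 (2.34 ± 0.12, adjusted p = 6.51e-21). ATF3, a transcription factor of the same family, measured 30, 32.8 and 33.6 CPM against 7.54, 6.93 and 8.63 (2.06 ± 0.09, adjusted p = 5.09e-23). The transcript of ATF4 itself, which is controlled largely through translation, differed less, by 0.40 ± 0.08 (adjusted p = 0.000111). PPP1R15A, which reverses eIF2 phosphorylation, differed by 1.47 ± 0.06 and DDIT4, which restrains mTORC1, by 1.34 ± 0.05.

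CHAC1, which breaks down glutathione, measured 22.6, 22.6 and 26.3 CPM in SR high and 6.06, 5.92 and 5.4 in PT high (2.04 ± 0.08, adjusted p = 9.91e-25). Of 7 tested stress-induced secreted factors 5 were higher in SR high: STC2, ADM2, GDF15, VEGFA and AREG. In the list 0 were lower, also by DESeq2 or at an unadjusted p under 0.05. Among all genes 11.4% were called higher and 10.1% lower. STC2, a stanniocalcin, measured 127, 125 and 124 CPM against 27.8, 25.5 and 26.6, with PT at the vehicle level of 27.2 ± 2 (2.24 ± 0.06, adjusted p = 1.54e-30). GDF15, a stress hormone that suppresses appetite, differed by 1.23 ± 0.09, and it also passed for PT high against vehicle (0.37 ± 0.09, adjusted p = 0.0279), as did AREG, an EGF receptor ligand (adjusted p = 0.0214). Neither passed against vehicle without PT high replicate 2 or without vehicle replicate 1 or 2, and GDF15 also failed without PT high replicate 1 or 3. ADM2, a peptide hormone, measured 8.81, 8.4 and 8.02 CPM against 1.8, 1.06 and 1.58 (2.46 ± 0.17, adjusted p = 1.32e-16). NIBAN1 (2.05 ± 0.14), TSC22D3 (1.89 ± 0.08) and ULBP1, a ligand of the NKG2D receptor (1.82 ± 0.14), were also among the 12 largest rises.

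Amino acid supply genes were mostly higher in SR high, where 11.4% of all genes were higher and 10.1% lower. Of 16 enzymes of serine, asparagine and proline synthesis 13 were higher and 0 lower (median 0.69). Of 12 amino acid transporters 10 were higher and 1 lower (median 0.55). The lower one, the lysosomal transporter SLC36A4 (-0.18 ± 0.07, adjusted p = 0.0456), did not pass when PT high replicate 1 or 3 or any SR high library was left out. ASNS, asparagine synthetase, measured 280, 260 and 284 CPM in SR high and 118, 129 and 122 in PT high, around the vehicle's 126 ± 2.9 (1.16 ± 0.06, adjusted p = 2.22e-22). PSAT1, of serine synthesis, measured 640, 614 and 623 CPM against 352, 345 and 340 (0.86 ± 0.04, adjusted p = 4.01e-24). Among transporters SLC6A9 (glycine) differed by 1.28 ± 0.09 and SLC1A4 (neutral amino acids) by 1.15 ± 0.06. Of 20 cytosolic aminoacyl-tRNA synthetases, 11 were higher and 2 lower, AARS1 at 0.73 ± 0.04 and CARS1 at 0.74 ± 0.04 among the former. RARS1 (-0.32 ± 0.06) and HARS1 (-0.11 ± 0.03) were the lower ones, and HARS1 did not pass when PT high replicate 2 or 3 or SR high replicate 2 or 3 was left out. In PT high against PT low edgeR and DESeq2 called 0 members of any of these 3 lists, with at most 2 in one direction at an unadjusted p under 0.05. With 0.549% of all genes called there, this does not set the lists apart.

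The ASNS and CHAC1 upstream regions carry the C/EBP-ATF response element TGATGNAA, to which ATF4 and CHOP-type dimers bind, shown in capitals (300 bases, both strands searched, RefSeq GRCh38.p14). ASNS lies on the minus strand at chr7:97872359-97872658, with the match 68 bases before the start, and CHAC1 on the plus strand at chr15:40953221-40953520, with the match 209 bases before it.
ASNS: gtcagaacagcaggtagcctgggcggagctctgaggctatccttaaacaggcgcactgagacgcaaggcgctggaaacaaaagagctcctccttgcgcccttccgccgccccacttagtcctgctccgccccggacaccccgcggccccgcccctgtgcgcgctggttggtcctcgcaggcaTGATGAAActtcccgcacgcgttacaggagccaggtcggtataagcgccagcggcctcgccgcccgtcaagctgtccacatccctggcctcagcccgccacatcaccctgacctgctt
CHAC1: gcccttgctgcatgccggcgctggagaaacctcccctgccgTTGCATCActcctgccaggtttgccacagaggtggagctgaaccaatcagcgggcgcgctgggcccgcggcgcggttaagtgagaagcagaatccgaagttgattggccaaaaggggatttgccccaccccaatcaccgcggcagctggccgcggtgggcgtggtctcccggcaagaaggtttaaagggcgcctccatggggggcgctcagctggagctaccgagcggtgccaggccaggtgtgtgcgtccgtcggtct
Of 74 promoters of genes higher at least 2-fold in SR high, 11 (14.9%) held the element, as did 0 of 30 of genes lower at least 2-fold, 1.72% of 11737 tested genes' promoters and 6 of 16 promoters of aminoacyl-tRNA synthetases. These shares are descriptions, since the genes were chosen by the comparison itself, and a match is not evidence of binding.

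Endoplasmic reticulum chaperones were higher in SR high and cytosolic chaperones lower. Of 26 endoplasmic reticulum chaperones and unfolded protein response genes 19 were higher in SR high and 0 lower, against 11.4% and 10.1% of all genes. Their median was 0.32, and 17 were higher without PT high replicate 2. HSPA5, the chaperone BiP, measured 995, 957 and 1020 CPM in SR high and 605, 647 and 641 in PT high, against 611 ± 13.1 in vehicle (0.65 ± 0.05, adjusted p = 2.13e-15). HERPUD1, of protein degradation at that membrane, measured 104, 96.5 and 105 CPM against 41.7, 42.9 and 38.6 (1.31 ± 0.06, adjusted p = 1.24e-23). DNAJB9, a co-chaperone, differed by 1.29 ± 0.09 and the sensor ERN1 by 1.26 ± 0.08. The groups did not overlap for any of the 4.

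In the heat shock list 18 of 20 were lower in SR high and 1 higher, against 10.1% and 11.4% of all genes. The list median was -0.51. HSPA1A, the inducible HSP70, measured 108, 92.2 and 97.8 CPM in SR high and 306, 292 and 297 in PT high, against 324 ± 18.4 in vehicle. SR high was 3-fold below PT high (-1.59 ± 0.07, adjusted p = 1.24e-23), and PT high was not distinguished from vehicle (adjusted p = 0.343). HSPA1B, a near-identical neighbour whose reads the counting may split with HSPA1A, differed by -1.22 ± 0.07. HSPA8, the constitutive HSP70, measured 1050, 1036 and 1054 CPM against 2001, 1863 and 2023 (-0.91 ± 0.04, adjusted p = 7.95e-25). HSPH1, its nucleotide exchange factor, differed by -0.74 ± 0.04 (adjusted p = 3.21e-19). HSF1 was the member higher in SR high (0.22 ± 0.06, adjusted p = 0.00374, or 0.0535 without SR high replicate 3). In PT high against PT low edgeR and DESeq2 called 0 of the 20, with 7 lower at an unadjusted p under 0.05. Of all 17129 genes, 0.152% were called lower there, and 1982 had an unadjusted p under 0.05 in either direction.

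HSPA1A holds the heat shock element form GAANNTTC 106 bases before its start, in capitals in this stretch at chr6:31815293-31815592 (plus strand).
HSPA1A: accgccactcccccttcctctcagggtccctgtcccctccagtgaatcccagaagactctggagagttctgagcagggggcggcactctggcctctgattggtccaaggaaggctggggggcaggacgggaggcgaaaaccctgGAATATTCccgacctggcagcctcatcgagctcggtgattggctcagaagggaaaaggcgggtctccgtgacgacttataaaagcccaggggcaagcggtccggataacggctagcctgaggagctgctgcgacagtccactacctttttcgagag
The form is in 6 of 17 promoters of the list and in 4.67% of the promoters of tested genes.

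**Figure D4:**
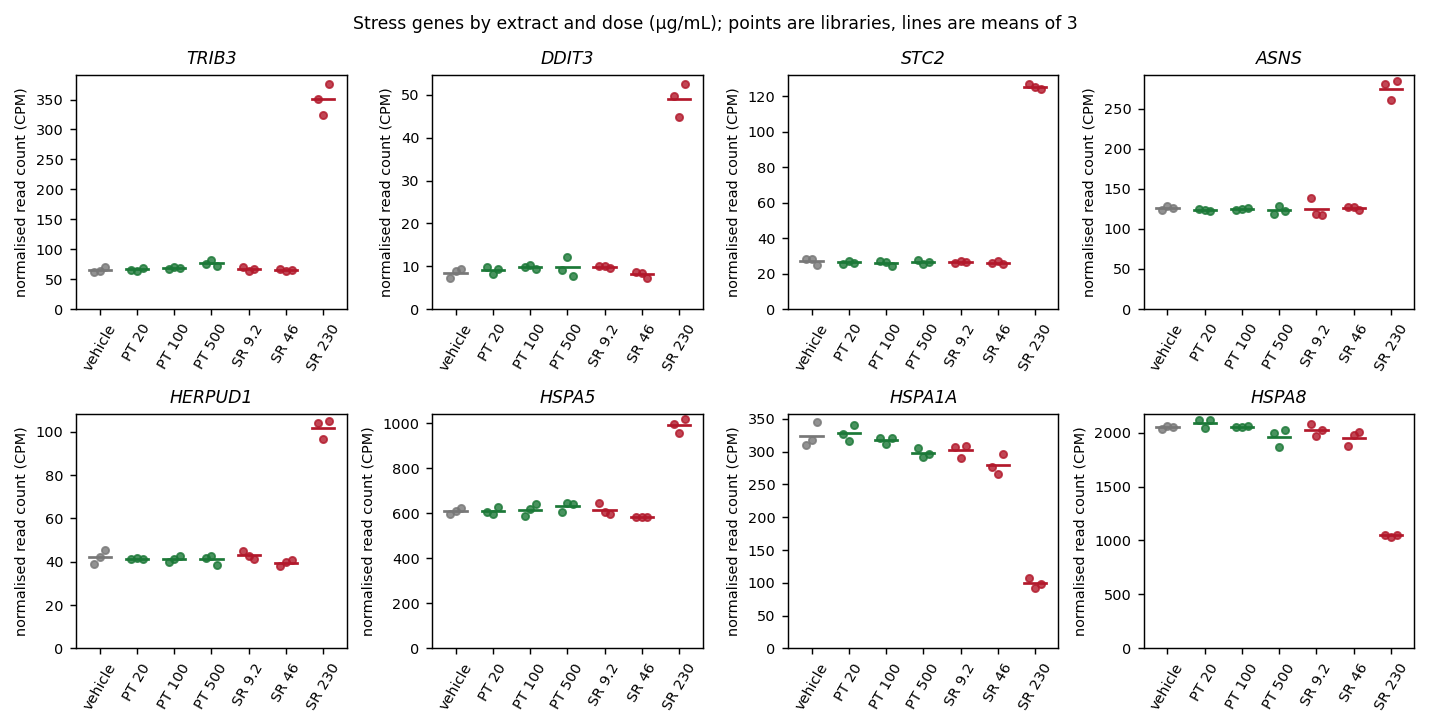
Normalised read counts (CPM, linear axis from 0) of 8 stress genes in vehicle, PT at 20, 100 and 500 µg/mL and SR at 9.2, 46 and 230 µg/mL; points are libraries and lines are means of 3. SR 230 stands above all other groups for TRIB3 to HSPA5 and below them for HSPA1A and HSPA8.

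Targets of p53 were mostly higher in SR high, and apoptosis genes were less uniform. Of 26 p53 targets 16 were higher in SR high and 0 lower, against 11.4% and 10.1% of all genes. Their median was 0.28, with 1 lower at an unadjusted p under 0.05 and 0 by DESeq2. Of 27 BCL2 family and death receptor genes 12 were higher, 2 lower and 13 not called (median 0.18). Without PT high replicate 2, 10 of these were higher and 3 lower. BBC3, encoding the death protein PUMA, measured 16.9, 14.8 and 16.2 CPM against 7.43, 8 and 5.99 (1.16 ± 0.11, adjusted p = 8.53e-12). PMAIP1, encoding NOXA, differed by 0.98 ± 0.07 and the death receptor TNFRSF10B by 0.74 ± 0.06. The inhibitor CDKN1A (p21) measured 163, 161 and 170 CPM against 108, 112 and 112, the latter at the vehicle level of 111 ± 6.28 (0.57 ± 0.05, adjusted p = 5.82e-14), and MDM2 differed by 0.45 ± 0.05. Several of these are also targets of ATF4 and CHOP.

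DNA replication and mitosis genes were mostly lower in SR high. Of 28 DNA replication genes 21 were lower and 0 higher, and of 26 mitosis genes 22 and 0. Both medians were -0.32, and 0 were higher at an unadjusted p under 0.05 or in DESeq2. Among all genes 10.1% were lower and 11.4% higher. G1 cyclins and cell cycle inhibitors were mixed, with 2 of 12 higher, 4 lower and 6 not called. MCM6, a replicative helicase subunit, measured 115, 109 and 112 CPM against 150, 148 and 158 (-0.44 ± 0.03, adjusted p = 7.06e-15). AURKA, a mitotic kinase, measured 119, 119 and 122 CPM against 162, 172 and 165, the latter near the vehicle's 171 ± 3.8 (-0.47 ± 0.04, adjusted p = 1.99e-13). PLK1 differed by -0.37 ± 0.03 and RRM2, which makes deoxynucleotides, by -0.38 ± 0.03. In PT high against PT low edgeR and DESeq2 called 0 members of the replication and mitosis lists. At an unadjusted p under 0.05, 5 replication genes and 1 mitosis gene were higher there, and 1 mitosis gene lower. Over all 17129 genes, 0.549% were called in that contrast and 1982 had an unadjusted p under 0.05.

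Of 28 immediate early and ERK feedback genes 24 were higher in SR high and 0 lower (median 0.55), against 11.4% and 10.1% of all genes. EGR1, an early growth response transcription factor, measured 8.57, 6.51 and 7.97 CPM against 1.47, 1.57 and 1.14 (2.46 ± 0.17, adjusted p = 3.48e-16). FOSB measured 5.75, 6.04 and 5.93 CPM against 0.928, 1.06 and 1.54 (2.34 ± 0.22, adjusted p = 4.49e-12). DUSP4, an ERK phosphatase, differed by 0.48 ± 0.03 and PHLDA1 by 0.60 ± 0.04.

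Lipid synthesis genes were likewise mostly higher in SR high, where 11.4% of all genes were higher and 10.1% lower. Of 27 cholesterol genes 20 were higher and 1 lower (LBR, -0.24 ± 0.05), with a median of 0.46. Of 12 fatty acid genes 9 were higher and 0 lower. INSIG1, which retains the sterol sensor, measured 102, 95 and 101 CPM in SR high and 46.7, 46.4 and 45.1 in PT high, and both were above the vehicle level of 37 ± 1.95. SCD, the stearoyl desaturase, measured 1801, 1947 and 1797 CPM against 1005, 794 and 970 (1.00 ± 0.09). For PT high against PT low 5 of the 27 cholesterol genes were called, all higher: CYP51A1, INSIG1, LSS, MSMO1 and SQLE. The background for higher calls there was 0.397%. With only the libraries of those 2 groups fitted, 1 cholesterol gene was called. In the early-response, fatty acid, endoplasmic reticulum and serine lists, where edgeR called 0 members lower in SR high than in PT high, DESeq2 also called 0 lower and 0 had an unadjusted p under 0.05 in that direction.

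**Figure D5:**
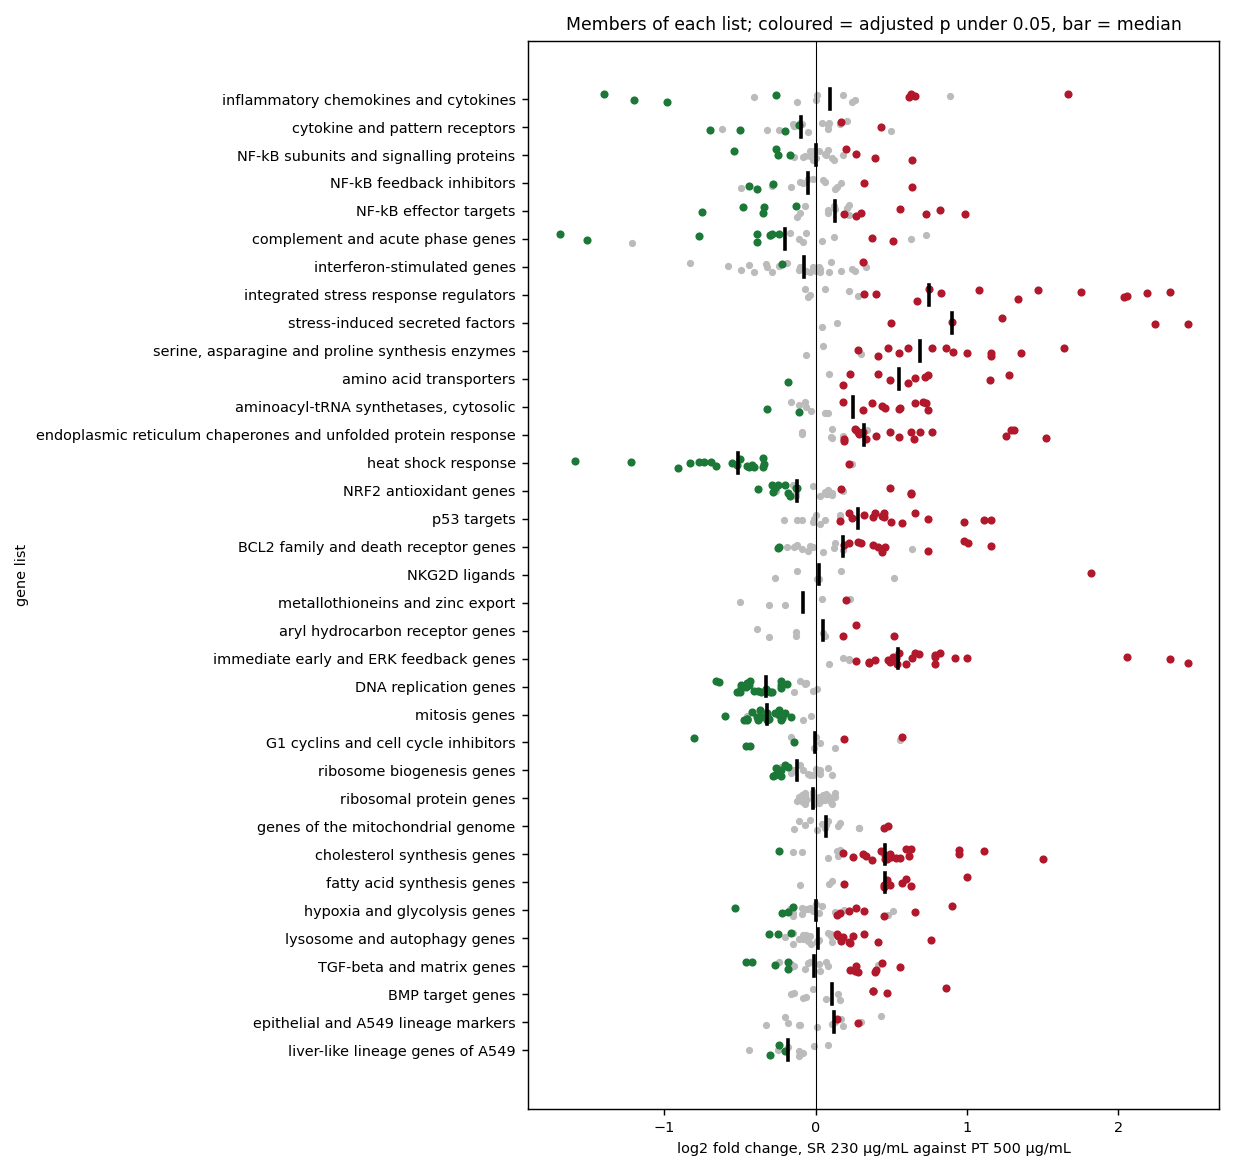
Log2 difference between SR high and PT high for the tested members of each gene list with over 4 of them; red and green points had an adjusted p under 0.05 and the black bar is the list median. The integrated stress response list lies to the right (median 0.75), the heat shock list to the left (median -0.51), and the chemokine list spreads on both sides (median 0.09).

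Few genes were called at the lower doses: 5 genes (0.0292%) differed between SR medium and PT medium, namely HR, ATOH8 and ID4 higher in SR medium (0.0175%) and CCL2 and CXCL5 lower (0.0117%), and 1 (0.00584%) between SR low and PT low, CYP1B1. Leaving out single libraries of the medium doses left 2 or 3 genes. CCL2 measured 4.81, 6 and 5.55 CPM in SR medium and 9.11, 9.21 and 8.56 in PT medium (-0.71 ± 0.14, adjusted p = 0.0247), but its call was lost on leaving out any of the 6 libraries (adjusted p between 0.0832 and 0.376). CXCL5 differed by -0.26 ± 0.05 (adjusted p = 0.0247), with 106 ± 3.95 CPM in PT medium and 88.2 ± 4.99 in SR medium, and was not called without SR medium replicate 1 or 2 or PT medium replicate 2 or 3. ATOH8, a transcription factor regulated by BMP signals, measured 5.52, 6.17 and 6.12 CPM in PT medium and 11.3, 10.2 and 8.89 in SR medium (0.77 ± 0.10, adjusted p = 1.75e-05), and at the high doses 6.44, 8.13 and 5.91 against 7.77, 9.01 and 9.64 (0.38 ± 0.10, adjusted p = 0.00441, 0.0553 without PT high replicate 3 and 0.0549 without SR high replicate 3). ID4, an inhibitor of DNA binding, differed by 0.58 ± 0.12 at the medium doses (adjusted p = 0.0416), a call also lost on leaving out any of the 6 libraries. HR, a nuclear corepressor, differed by 0.37 ± 0.06 (adjusted p = 0.000222). TRIB3 was 65.6 ± 1.22 CPM in SR medium and 68.7 ± 1.18 in PT medium, and ASNS 126 ± 2.7 and 125 ± 1.26.

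The 2 dose series gave unequal counts of called genes: SR high against SR low gave 3498 genes (20.4%), 1894 higher and 1604 lower, and PT high against PT low 94 (0.549%), 68 higher and 26 lower (0.152%). The PT count was 53 without PT high replicate 2 and 57 without PT low replicate 1 or 2. Against vehicle, SR high gave 4101 (23.9%), with 13% of genes higher and 10.9% lower, and PT high 240 (1.4%), 184 higher (1.07%) and 56 lower (0.327%); the latter was 64 without PT high replicate 2, 69 without vehicle replicate 1 and 63 without vehicle replicate 2. Vehicle codes begin with A1 and extract codes with 3, so this number cannot be told apart from treatment there, whereas SR, PT and both low doses share the number 3.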

How the data were processed

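Directional mRNA libraries of A549 RNA gave paired reads, per the labels' protocols. The authors deposited expected counts (estimated counts with decimals) for each Ensembl gene, without normalisation as far as the values show. The build is GRCh38, and the tools were RSEM 1.3.3, STAR 2.7.3a, Trim Galore 0.6.5 and FastQC 0.11.9, per the submitters' processing notes. Neither an annotation release nor a strand setting is given in the sources used here, so reads of overlapping and antisense genes cannot be told apart. The table has 60675 genes in 269 columns. The 60 columns that match labels of this series were used and the other 209 were not.

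Counts were rounded to whole numbers. edgeR 4.0.16 under R 4.3.3 (TMM, filterByExpr by group, robust quasi-likelihood fit) was fitted on all 60 libraries with 1 column per group, which leaves 40 residual degrees of freedom and 17129 genes. Biological variation (common coefficient) came to 7.04%. CPM values use TMM-adjusted library sizes, a standard error is the log2 fold change divided by the square root of F, and a gene was called at an adjusted p (Benjamini-Hochberg) under 0.05. The fit was tested on simulated data.

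The 60 libraries held between 17420373 and 36479629 counts, which limits precision for genes under about 1 CPM. Among them, 0 pairs of libraries held identical values. Of the identifiers, 56558 took symbols from the supplied current table and 497 from GENCODE 29, leaving 3620 unnamed (0.0579% of counts). Of 785 genes in 38 lists, 686 were tested. The genes named are the 12 largest called rises and 12 largest called falls among genes whose groups do not overlap (mean log2 CPM 1 or more), up to 4 called members of each list in its main direction and 2 in the other, a panel of 33 genes (32 tested) and the called genes of the lower doses. Members and lists were chosen with earlier results of these data known. Promoters are RefSeq sequences of GRCh38.p14, found for 11737 of the genes tested.

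The alternatives were DESeq2 1.42.0, edgeR with its size factors, every gene kept whatever its count, a fit to just the pair of groups, the replicate number as a block, each library's slope on transcript length as covariate, and leaving out single libraries.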

Additional observations from a re-analysis of the deposited data

How the results depend on the processing

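Among 160 named genes called between SR high and PT high, 136 were called in every fit that left out 1 library, and 0 of the 166 named genes changed direction past the threshold under any alternative. The count of 3679 genes was 2181 when only the 6 libraries were fitted, 5432 with the length slope of the libraries as covariate, and lay between 2902 and 3308 without single libraries. SR high against SR low gave 3498 genes, and 5332 with the length slope as covariate. PT high against PT low gave 94, and 729 without the low-count filter, 175 with the length slope, 26 with only its 6 libraries, and 53 to 93 without single libraries. PT high against vehicle gave 240, and 1343 without the filter, 26 with only its 6 libraries and 63 to 239 without single libraries; DESeq2 split its calls into 215 higher and 116 lower, against 184 and 56. SR medium against PT medium gave 5 genes, and 76 without the filter, 26 with the length slope, 27 with only its 6 libraries, 13 in DESeq2 and 2 to 3 without single libraries. SR low against PT low gave 1, and 72 without the filter, 2 with the length slope, 2 with only its 6 libraries and 4 in DESeq2. The cause of these shifts was not tested. DESeq2 gave no adjusted p for CCL20.

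Same-numbered SR high and PT high libraries did not deviate together (correlations 0.0102, -0.19 and -0.0275). Differently numbered ones gave correlations between -0.125 and 0.125. With 3 libraries per group these values cannot show whether same-numbered libraries were handled together, and the main fit used no pairing. With the replicate block the counts were 3651 for SR high against PT high, 5 and 1 for the medium and low doses, 3471 and 94 for the high against the low dose of SR and PT, and 4060 and 225 for SR high and PT high against vehicle. CCL20 and CFB rest on few reads: CCL20 had 4 to 29 counts per library in these 6, and CFB 11 to 89.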

Other observations

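Of 27 NRF2 antioxidant genes 4 were higher in SR high and 10 lower, against 11.4% and 10.1% of all genes. The lower count was not stable: 3 without PT high replicate 2, 5 without SR high replicate 1 and 4 without SR high replicate 2. Against vehicle, 9 of the 27 were higher in SR high and 4 lower (background 13% and 10.9%). Leaving out 1 library brought that lower count to between 2 and 3. HMOX1, the inducible heme oxygenase, measured 286, 278 and 304 CPM in SR high and 192, 189 and 178 in PT high, against 166 ± 8.44 (SD, n = 3) in vehicle (log2 difference 0.63 ± 0.07, edgeR adjusted p = 3.26e-10). GSR, which regenerates glutathione, measured 341, 325 and 324 CPM against 393, 406 and 407 (-0.28 ± 0.03, adjusted p = 5.56e-09). The exporter ABCC3 differed by 0.63 ± 0.07. Of 22 cytokine and pattern receptors 2 were higher in SR high and 4 lower, against 11.4% and 10.1% of all genes. Without PT high replicate 2, 1 was higher, and 2 were lower without SR high replicate 1 and 1 without SR high replicate 2. OSMR, for oncostatin M, was higher in SR high (0.43 ± 0.11, adjusted p = 0.00238) and IL6R lower (-0.50 ± 0.11, adjusted p = 0.000617).

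Of 12 BMP target genes 4 were higher in SR high and 0 lower by edgeR or DESeq2, against 11.4% and 10.1% of all genes in edgeR. At an unadjusted p under 0.05, 0 were lower, and without SR high replicate 3, 2 were called higher. The 4 genes were GREM1, ID3, ATOH8 and ID4. GREM1, a secreted BMP antagonist, measured 12.5, 12.6 and 12.7 CPM in SR high and 6.09, 7.35 and 7.57 in PT high, against 5.04 ± 0.528 in vehicle (0.86 ± 0.11, adjusted p = 7.34e-08). ID4 was below vehicle in both high doses, by -0.45 ± 0.12 for SR (adjusted p = 0.00361) and -0.83 ± 0.12 for PT (adjusted p = 1.2e-05). Its difference between the high doses (0.38 ± 0.13, adjusted p = 0.0236) did not pass without PT high replicate 1 (adjusted p = 0.261), PT high replicate 2 (0.051), SR high replicate 1 (0.0855) or SR high replicate 3 (0.11).

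Among the largest falls in SR high outside the lists were SEMA6B, a semaphorin (8.2, 8.35 and 7.97 CPM against 14.4, 17.8 and 16, log2 difference -0.97 ± 0.09), ARRB1, a beta-arrestin (4.71, 4.53 and 4.09 against 8.79, 8.78 and 8.12, -0.95 ± 0.11), and AXIN2, a Wnt target (1.74, 2.08 and 1.38 against 4.04, 2.68 and 3.23, -0.97 ± 0.18). None of these 3 was distinguished from vehicle in PT high (adjusted p = 0.55, 0.988 and 0.923). PDZK1IP1 showed the other arrangement: 1.55, 1.42 and 1.5 CPM in SR high, 2.89, 3.93 and 3.51 in PT high and 0.77 ± 0.198 in vehicle (-1.19 ± 0.22, adjusted p = 3.37e-05). CYP1B1, an aryl hydrocarbon receptor target, was the 1 gene called between SR low and PT low, at 72.7, 73.9 and 73.8 CPM in SR low and 54.8, 57.3 and 54.4 in PT low, while SR medium measured 57.2, 58.7 and 55.2.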
